A study of Mus musculus with 12 samples.

Results

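The genes described here encode the central scaffold of the excitatory postsynapse: the SAPAP proteins Dlgap1, Dlgap2, Dlgap3 and Dlgap4, the Shank proteins Shank1, Shank2 and Shank3, and the membrane-associated guanylate kinases Dlg2, Dlg3 and Dlg4. These 10 genes were taken by symbol from the 18208 genes of the RNA-seq table, and their 1141 CLIP positions by Ensembl gene identifier from 147438 distinct positions of the CLIP count table. They were grouped partly on a measured value: a Dlgap4 intron position had fewer CLIP reads after methamphetamine, so the treatment contrast of Dlgap4 in CLIP is a description and carries no test.

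CLIP-seq reads the RNA fragments cross-linked to a protein, here hnRNP H, in whole mouse striatum. All mice were wild type on the C57BL/6J strain, post-natal day 50 to 100, and came from matings of Hnrnph1 mutant heterozygous males with C57BL/6J females. Every mouse was injected with saline on days 1 and 2, and on day 3 with either saline or methamphetamine at 2 mg/kg (both i.p.), and both striata were taken 30 min later. Each library came from a pool of 4 mice, 2 females and 2 males, with 3 pools per treatment, and the RNA-seq tissue of a pool was set aside before cross-linking. A pool averages its animals and a whole striatum averages its cell types, so in these bulk samples fewer cells of a type and less RNA per cell cannot be told apart.

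In the postsynaptic density of excitatory synapses, Dlg proteins hold glutamate receptors and adhesion molecules through their PDZ domains, Dlgap proteins bind the guanylate kinase domain of the Dlg proteins, and Shank proteins bind the Dlgap proteins from below and link them to Homer and the actin cytoskeleton. Striatal projection neurons receive dense glutamatergic input and use this scaffold at their spines, where loss of Dlgap3 or Shank3 is known to cause repetitive grooming in mice. hnRNP H is a nuclear RNA-binding protein that regulates splicing and polyadenylation and is known to bind runs of guanines.

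The sequences below are examples from the exonic scaffold positions, with many or few guanine runs, and not a representative sample. The first 5 are windows of 30 bases from 3′ UTRs, each the window of its 100-nt position with the most GGG matches. The last 3 are whole 100-nt coding-exon positions of the deposited peak lists. Not printed are the Dlg4 5′ UTR positions, which held 0 to 8 matches, and a Dlg4 coding-exon position of both lists, which held 0. All were read 5′ to 3′ on the sense strand from GENCODE M21 transcripts (GRCm38, plus strand), and capitals mark runs of at least 3 guanines. GGG was counted at every start, so a run of 4 holds 2 matches.
Dlg4 3′ UTR, chr11:70045385-70045414: agtGGGGaatgtGGGaGGGGGGtGGGGGGG
Dlg4 3′ UTR, chr11:70045443-70045472: gccaGGGGaggacaggaaatgctgccgcct
Dlg4 3′ UTR, chr11:70044898-70044927: caggaacctGGGGtctGGGGGGGagctGGG
Shank3 3′ UTR, chr15:89558538-89558567: ccaGGGGGGctGGGtggaaGGGGGtGGGGG
Shank1 3′ UTR, chr7:44359824-44359853: aaaaccctagaacacacaaatccaaaaGGG
Shank1 coding exon, chr7:44327054-44327153: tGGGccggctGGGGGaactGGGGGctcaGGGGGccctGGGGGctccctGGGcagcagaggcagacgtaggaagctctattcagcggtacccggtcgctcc
Shank1 coding exon, chr7:44351854-44351953: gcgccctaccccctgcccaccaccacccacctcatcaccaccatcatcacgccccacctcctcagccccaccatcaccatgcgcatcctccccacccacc
Dlgap3 coding exon, chr4:127214705-127214804: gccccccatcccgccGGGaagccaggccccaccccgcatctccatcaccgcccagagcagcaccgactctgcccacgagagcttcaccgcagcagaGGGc

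The first window lies in the scaffold position with the most CLIP reads, chr11:70045343-70045442 in the Dlg4 3′ UTR. That position held 8315 reads over the 6 libraries and 24 GGG matches. Only 6 of 24074 exonic CLIP positions, or 0.0249%, held as many. The abutting position chr11:70045443-70045542 held almost as many reads, 8018, with 2 matches, and 51.3% of exonic positions held at least that number. Reads of 1 fragment can fall in both positions, so the 2 counts are not independent. At the Shank3 3′ UTR position that holds the fourth window there were 13 matches and 82 reads, and at the Shank1 3′ UTR position of the fifth window 1 match and 200 reads. Of 56 scaffold positions that lay wholly within 1 exon, 43 held GGG (76.8%), against 70.9% of all 24074 exonic positions. GGGG was found in 30 of them (53.6%) against 36.5% of all. Among positions with at least 50 reads, GGGG was in 52.9% of 17 scaffold positions and 50.8% of all 2885. There GGG was in 82.4% and 82.0%. Under 50 reads, GGGG was in 53.8% of 39 scaffold positions and 34.6% of all 21189. Dlg4 supplied more of the 56 positions than any other gene. The 2 Shank1 coding-exon positions stood in the methamphetamine list and had no line in the count table: 1 held 14 GGG matches and the other held 0. A match describes the letters of a window and is no evidence of where the protein sat. Sequence of the intronic positions was not used here.

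**Figure D1:**
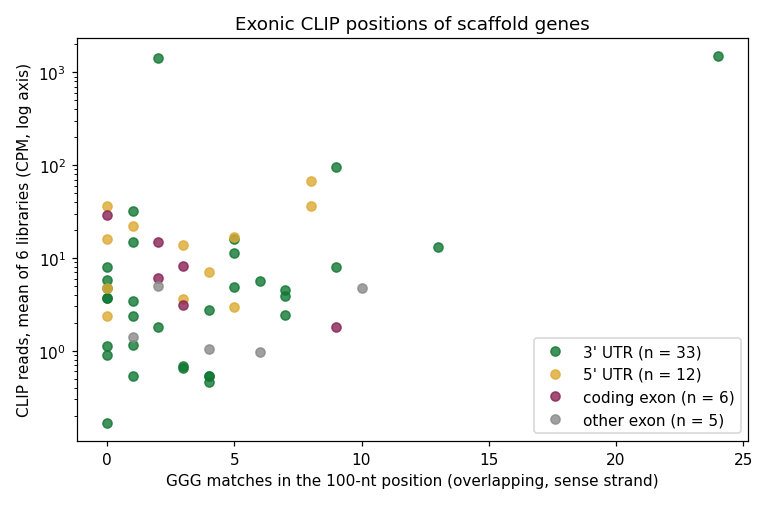
Overlapping GGG matches in each of the 56 exonic 100-nt CLIP positions of the scaffold genes (x axis) against mean CLIP reads over 6 libraries on a depth-scaled axis (CPM, log scale), coloured by annotated region. The point at 24 matches and the point at 2 matches that lie above all the others are the abutting Dlg4 3′ UTR positions with 8315 and 8018 reads.

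Recovered RNA-seq depth was 3935160 to 5091839 reads per library and CLIP depth 423057 to 1635338 reads. In both assays the first principal component split the libraries into the same 2 sets that cross treatment: saline 1, saline 3 and methamphetamine 2 (set A) against saline 2, methamphetamine 1 and methamphetamine 3 (set B); the labels name no batch. The component held 65.6% of the RNA-seq variance and 46.6% of the CLIP variance. The sets also differed in depth. Every set A library had at least 979878 CLIP reads, whereas no set B library had more than 909091. The effective library size behind the RNA-seq CPM ran the other way. It was at most 4.38e+06 reads for set A libraries and at least 4.73e+06 for those of set B. All 10 markers of striatal projection neurons were present. Their summed level was 8275 to 9469 CPM in set A and 5995 to 6776 CPM in set B, and 7 of the 10 were higher in every set A library. Summed astrocyte markers ran the other way, 2496 to 2797 CPM in set A and 3668 to 4077 CPM in set B, with 5 of 8 higher in every set B library. Summed markers of cortical excitatory neurons were 319 to 696 CPM in set A and 656 to 1361 CPM in set B, microglia markers 252 to 288 CPM and 318 to 346 CPM, and oligodendrocyte markers 5052 to 12349 CPM and 6833 to 12295 CPM. Choroid plexus markers summed to 4964 CPM in methamphetamine 2 and to 64.4 to 227 CPM in the other 5 libraries. No listed marker was at 0 in all libraries. Higher in every set B library were 4 of 10 cortical, 3 of 8 microglia and 3 of 8 oligodendrocyte markers. Higher in every set A library were 2 of 8 choroid plexus markers. Over 7853 genes with a mean log2 CPM above 4, 46.3% did not overlap between the sets, in either direction. The sets come from the same RNA-seq values, so these marker counts are a description. The part of these cell types, and of depth, in the values below was not tested.

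In total RNA, Dlgap3 was the most abundant scaffold transcript per length. Its level was 245 ± 78.2 CPM per kb of annotated exon (SD over 6 pools), followed by Dlg4 at 86.3 ± 11.0, Shank3 at 58.7 ± 16.5 and Dlgap4 at 36.2 ± 5.16 CPM per kb. This order of the first 4 held in every one of the 6 pools. Shank1 (32.8 ± 7.78), Dlgap2 (31.2 ± 6.84), Dlg3 (23.4 ± 3.56), Shank2 (19.4 ± 3.29) and Dlg2 (18.6 ± 1.89 CPM per kb) followed, and among Dlgap4 and these 5 each gene exceeded the next in only 4 or 5 of 6 pools, so neighbours were within their spread. Dlgap1 was lowest at 13.7 ± 2.14 CPM per kb, below Dlg2 in 6 of 6 pools. Divided by the longest transcript instead of all annotated exons, the first 4 kept their order and Dlgap1 stood at 34.2 CPM per kb, above Dlg3 at 27.3 and Shank2 at 23.2.

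Methamphetamine against saline in total RNA asks whether scaffold transcripts differ 30 min after the injection. No scaffold gene passed the test. With limma on all 18208 genes, 0 of 10 scaffold genes had an unadjusted p under 0.05, where 1.52% of all genes did, and no gene in the whole table passed an adjusted p of 0.05 (276 had an unadjusted p under 0.05). edgeR on the recovered whole reads called 0 genes as well, with 109 at an unadjusted p under 0.05. The 2 treatments overlapped for all 10 genes, whereas 6.01% of all genes had treatments that did not overlap. 5 scaffold genes had a positive and 5 a negative change, with a median of -0.024 (log2) beside 0.0020 for all genes.

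Among the SAPAP genes, Dlgap3, which is known to be enriched in striatum, read 10.34, 9.60 and 10.53 log2 CPM in saline pools 1, 2 and 3 and 9.45, 10.53 and 9.85 log2 CPM in methamphetamine pools 1, 2 and 3. The 3 highest values were those of set A in both treatments. The fitted change was -0.21 with a standard error (SE) of 0.33 (95% interval -0.97 to 0.54; limma adjusted p = 0.9998). Within set A methamphetamine 2 lay 0.10 above the mean of the 2 saline pools. Within set B methamphetamine 3 lay above saline 2 and methamphetamine 1 below it, and their mean was 0.05 above; each such within-set value has 1 library in 1 of its arms. Dlgap2 read 7.74, 7.17 and 7.91 log2 CPM after saline and 7.11, 7.78 and 7.60 log2 CPM after methamphetamine (change -0.11, SE 0.24). Its 3 highest values were again those of set A. Dlgap1 read 7.81, 8.05 and 7.57 against 8.02, 7.86 and 8.23 log2 CPM (change 0.23, SE 0.18), and its 3 highest values were those of set B. Dlgap4 read 8.31, 8.11 and 8.29 against 7.90, 8.34 and 8.52 log2 CPM (change 0.01, SE 0.19; 95% interval -0.42 to 0.45). Its RNA level thus overlapped fully between the treatments, with both extremes among the methamphetamine pools.

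Among the Shank genes, Shank3, the family member most studied in striatum, read 9.38, 8.73 and 9.42 log2 CPM after saline and 8.39, 9.38 and 8.84 log2 CPM after methamphetamine. The change was -0.30 (SE 0.29; 95% interval -0.95 to 0.34), and -0.02 within set A and -0.11 within set B. Shank1 read 8.50, 8.26 and 8.01 against 8.08, 8.65 and 8.87 log2 CPM (change 0.28, SE 0.23). Unlike Shank3 its values did not separate by library set, and the 2 highest were methamphetamine pools 2 and 3. Shank2 read 7.69, 7.44 and 7.83 against 7.32, 7.95 and 7.89 log2 CPM (change 0.07, SE 0.21).

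Of the Dlg genes, Dlg4, which encodes PSD-95, read 10.23, 9.98 and 10.33 log2 CPM after saline and 9.84, 10.29 and 10.22 log2 CPM after methamphetamine (change -0.06, SE 0.22). Dlg2, which encodes PSD-93, read 8.13, 8.40 and 8.09 against 8.23, 8.15 and 8.43 log2 CPM (change 0.06, SE 0.17). Dlg3, which encodes SAP102, read 7.12, 7.33 and 6.90 against 6.88, 6.92 and 7.34 log2 CPM (change -0.07, SE 0.19). The widest of the 10 intervals was that of Dlgap3, and none excluded 0.

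**Figure D2:**
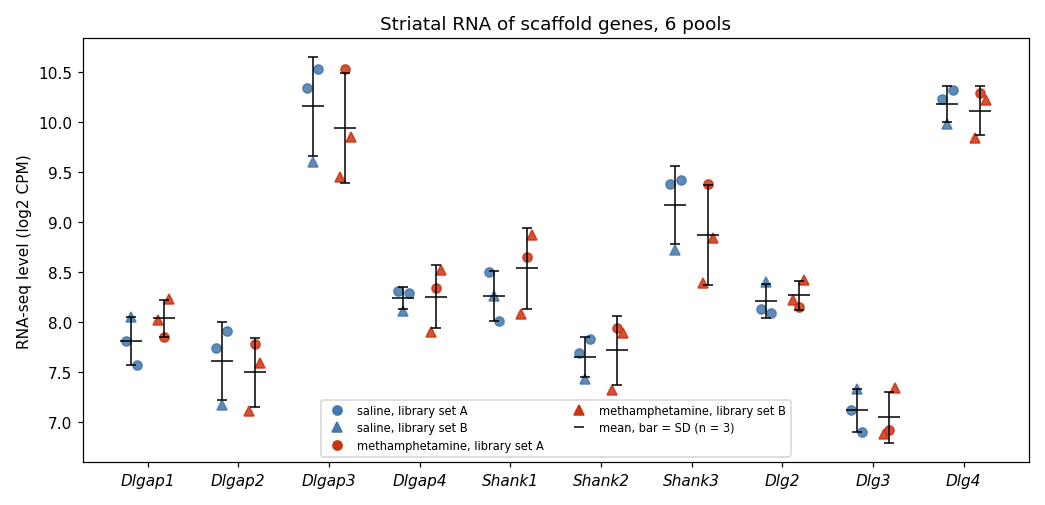
RNA-seq level (log2 CPM, y axis) of the 10 scaffold genes in each of 6 pools, coloured by treatment and shaped by library set, with the mean and SD of 3 pools per treatment. Saline and methamphetamine overlap for every gene, and for Dlgap3, Shank3, Dlgap2 and Dlg4 the set A circles lie above the set B triangles.

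The scaffold genes did not vary as 1 block across pools. Set A exceeded set B without overlap for Dlgap3 (by 0.84 log2), Shank3 (0.74), Dlgap2 (0.52) and Dlg4 (0.27), and lay below it for Dlgap1 (-0.35) and Dlg2 (-0.23). For Dlgap4, Shank1, Shank2 and Dlg3 the sets overlapped. The sets come from the same RNA-seq values, and 46.3% of 7853 genes with a mean log2 CPM above 4 did not overlap between them, so these differences are given as a description. Over the 6 pools Dlgap3 and Shank3 had a Pearson r of 0.98, Dlgap2 and Dlg4 of 0.97, and Dlgap1 and Dlgap3 of -0.75, as descriptions of libraries that share their depth and sets. The genes closest to the mean centred scaffold profile over 6 libraries were Foxp4, Tmem132a, Zfp830, Gga1 and Adgrb2, with r from 0.987 to 0.994 among 7843 genes compared. That mean profile was lowest in methamphetamine 1 (-0.31 log2) and highest in methamphetamine 2 (0.15) and methamphetamine 3 (0.14).

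hnRNP H CLIP reads were spread over the scaffold genes very unevenly. Scaffold positions held 0.857% to 1.41% of all CLIP reads in a library. Per kb of gene, Dlg4 stood far above the rest at 138 CPM per kb (rank 84 of 16893 genes), then Shank1 at 8.86, Dlgap2 at 6.39, Dlgap3 at 4.47, Shank3 at 4.11, Dlgap4 at 3.67 and Dlg3 at 3.52 CPM per kb. Dlgap1 (0.619), Dlg2 (0.348) and Shank2 (0.342 CPM per kb), whose genes are all long, were lowest. CLIP CPM here is the sum of a gene's positions, scaled by edgeR's trimmed mean of M-values (TMM). By annotation, introns held 94.0% of scaffold positions and 70.4% of scaffold reads, and 3′ UTRs 2.98% of positions and 26.4% of reads. Over all positions of the table introns held 80.7% of positions and 70.4% of reads, and 3′ UTRs 8.99% and 8.16%.

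Dlg4 accounted for most scaffold reads in 3′ UTRs. In Dlg4 (chr11:70016942-70047522), 72.3% of CLIP reads lay in the 3′ UTR, with a range of 67.5% to 74.9% over the 6 libraries. The position chr11:70045343-70045442 held 1965, 514 and 2255 reads in saline pools 1, 2 and 3 and 1206, 1747 and 628 reads in methamphetamine pools 1, 2 and 3. On the CPM scale the run of 3 abutting positions there read 3837, 2644 and 2667 against 2776, 3480 and 2168 CPM, overlapping between treatments. A second concentration lay further upstream: 29 of the 39 distinct Dlg4 positions in the peak lists fell within chr11:70026543-70030342, a stretch of introns and alternative 5′ UTR exons with a coding-exon position. It read 1183, 1026 and 1057 CPM after saline and 800, 1056 and 898 CPM after methamphetamine, and the treatments again overlapped.

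Dlgap2 differed from Dlg4 in that every CLIP position was intronic. In Dlgap2 (chr8:14095865-14847680), 95.8% of the reads came from 1 run of 9 abutting positions, chr8:14306666-14307565, with 94.9% to 97.3% in each library. No annotated exon and no other annotated gene overlaps that run. Its highest position, chr8:14307166-14307265, held 1484, 360 and 1942 reads after saline and 1019, 1528 and 453 reads after methamphetamine. The run read 5751, 3925 and 4395 CPM after saline and 4571, 5883 and 3094 CPM after methamphetamine, so the lowest and the highest pool were both methamphetamine pools. Most reads of the 46 Dlgap2 positions thus lay in 1 stretch of 900 bases, and the highest position held 24.9% of reads. In Dlg2 (243 positions, all intronic) the highest position held only 4.34% of reads.

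The Dlgap4 position that entered the choice of these genes is chr2:156704106-156704205, in an intron with no other annotated gene. In saline pools 1, 2 and 3 it took 678 of 921, 246 of 416 and 153 of 513 Dlgap4 reads, and in methamphetamine pools 1, 2 and 3 it took 27 of 332, 62 of 263 and 15 of 190. On the CPM scale of the gene sums that is 671, 654 and 91.7 CPM against 31.6, 62.6 and 26.6 CPM. The 3 saline pools all lay above the methamphetamine pools, but saline 3 stood close to methamphetamine 2 and far below the other 2 saline pools. The fitted change was -3.37 (log2, SE 0.76), given without a test because it chose the members; leaving out 1 pool at a time moved it between -3.87 and -3.01. The signal was narrow: the abutting position and 8 others within 5000 bases held at most 12 reads in any library. The rest of Dlgap4, 117 positions, read 241, 452 and 216 CPM after saline and 357, 203 and 310 CPM after methamphetamine, with full overlap. The Dlgap4 gene sum had a change of -1.23 (SE 0.48) with the position and -0.06 (SE 0.41) without it. The position stood in neither deposited peak list.

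**Figure D3:**
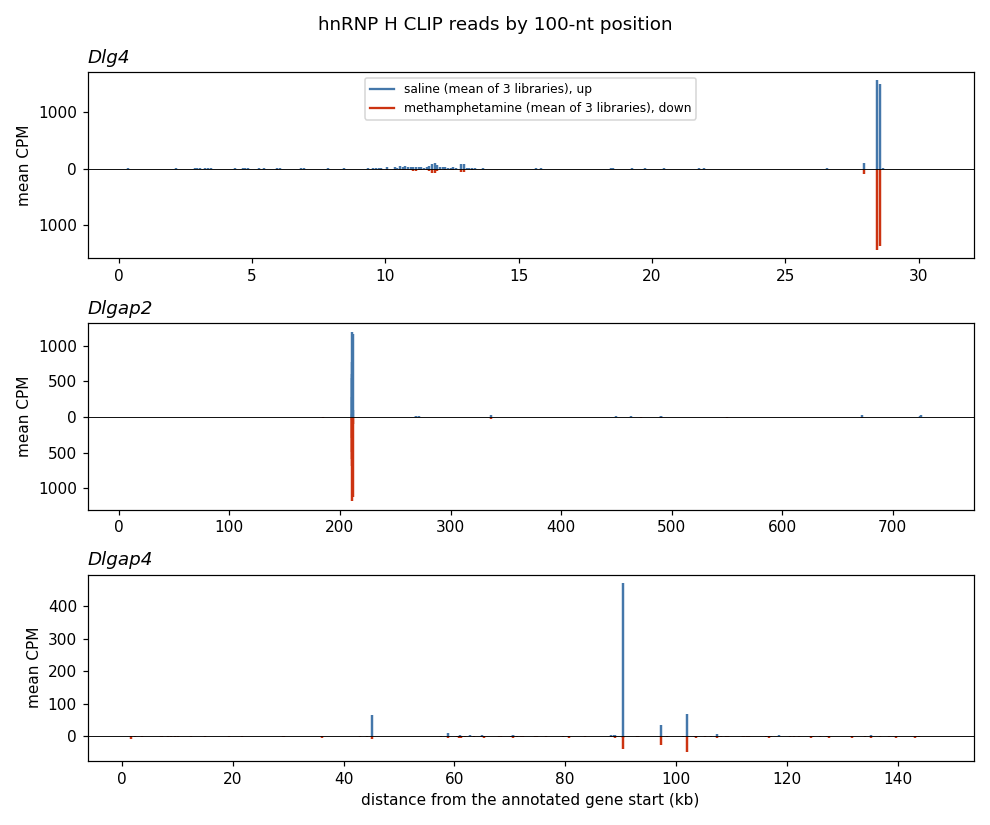
Mean CLIP reads (CPM, y axis) at each 100-nt position of Dlg4, Dlgap2 and Dlgap4 by distance from the annotated gene start (kb, x axis), saline upward and methamphetamine downward, each the mean of 3 libraries. Dlg4 peaks near its 3′ end and Dlgap2 at 1 intron run in both treatments. In Dlgap4 the intron position that chose the genes has a mean of 472 CPM after saline and 40.3 CPM after methamphetamine. Its saline pools 1, 2 and 3 read 671, 654 and 91.7 CPM.

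Methamphetamine against saline in CLIP asks whether hnRNP H binding to scaffold RNA differs with treatment. Of 10358 positions tested by edgeR's quasi-likelihood method, 70 were scaffold positions (those that passed a filter on low counts), 35 of them in Dlg4 and 13 in Dlgap2. Leaving aside the Dlgap4 position, which chose the genes, no scaffold position had an unadjusted p under 0.05, where 3.35% of all positions did. On the CPM scale of the gene sums, 3 of the 70 had treatments that did not overlap, against 8.35% of all positions: that of Dlgap4, the highest Dlg2 position and a Dlg4 intron position, chr11:70029143-70029242. The Dlg2 position, chr7:91756973-91757072, read 61.4, 23.9 and 22.8 CPM after saline and 21.1, 19.2 and 17.7 CPM after methamphetamine. The Dlg4 position read 24.8, 23.9 and 28.2 CPM against 11.7, 22.2 and 23.1 CPM. On the scale of the position fit the treatments overlapped at both. No position in the table passed an adjusted p of 0.05 (347 had an unadjusted p under 0.05, and DESeq2 called 0 with 345). Of the 70, 34 had a positive and 36 a negative change, with a median of -0.00083 beside 0.047 for all positions. All 6 tested Dlgap1 positions and all 4 tested Dlg2 positions had negative changes (-1.14 to -0.27 and -1.56 to -0.46). None had an unadjusted p under 0.05. Only 6 of 101 Dlgap1 and 4 of 243 Dlg2 positions passed the filter. They come from the same 6 libraries, so their shared sign is a description. The Dlg2 gene sum had a positive change (0.34, SE 0.57).

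With gene sums over 8177 genes, no scaffold gene other than Dlgap4, whose sum holds the position that chose the genes and is a description, had an unadjusted p under 0.05, where 5.25% of all genes did. No gene passed an adjusted p of 0.05 with edgeR (429 unadjusted) or DESeq2 (396 unadjusted). The scaffold median change was -0.010 beside 0.038 for all genes.

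Dlgap3 was the single scaffold gene whose CLIP sums did not overlap between treatments, 1 of 10 and so near the 9.59% of all genes. It read 228, 178 and 248 CPM after saline and 537, 267 and 364 CPM after methamphetamine. Methamphetamine 2 stood just above saline 3, and methamphetamine 1 stood highest. The change was 0.83 (SE 0.37; 95% interval -0.0043 to 1.67; edgeR adjusted p = 0.882), 0.17 within set A and 1.31 within set B, and 0.53 without methamphetamine 1. These reads were mostly intronic: 162 of its 167 positions, with 91.6% of reads, and its highest position, the coding-exon sequence printed above, held 4.88% of them.

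Dlg2 had the largest standard error of the 10 CLIP gene changes. It read 787, 648 and 386 CPM after saline and 1509, 422 and 371 CPM after methamphetamine. Methamphetamine 1 stood apart from all other pools, and there 215 of the 243 Dlg2 positions held at least 1 read, against 87 to 166 in the other 5 libraries. The change of 0.34 (SE 0.57) became -0.61 without that pool. All Dlg2 positions are intronic, in a gene of 1972576 bases that overlaps 22 other annotated genes on its strand, so its sum may hold reads of others.

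The other gene sums overlapped between treatments. Dlgap1 read 678, 532 and 524 against 436, 562 and 433 CPM (change -0.28, SE 0.31), and its highest position, chr17:70769574-70769673, lies where the opposite-strand gene AC079441.1 is annotated. Dlgap2 (change -0.06, SE 0.37) and Dlg4 (change -0.13, SE 0.34) followed their main runs. Shank1 read 345, 532 and 444 against 492, 428 and 435 CPM (change 0.04, SE 0.32). Shank3, with its highest position in the guanine-rich 3′ UTR window, read 242, 234 and 213 against 356, 272 and 179 CPM (change 0.23, SE 0.36), the saline pools lying inside the methamphetamine range. Shank2 was the lowest, at 80.2, 175 and 109 against 179, 103 and 220 CPM (change 0.47, SE 0.44). Its 3 set B pools, which had the fewest CLIP reads, were all above its 3 set A pools. Dlg3 read 172, 199 and 193 against 170, 186 and 149 CPM (change -0.16, SE 0.32).

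**Figure D4:**
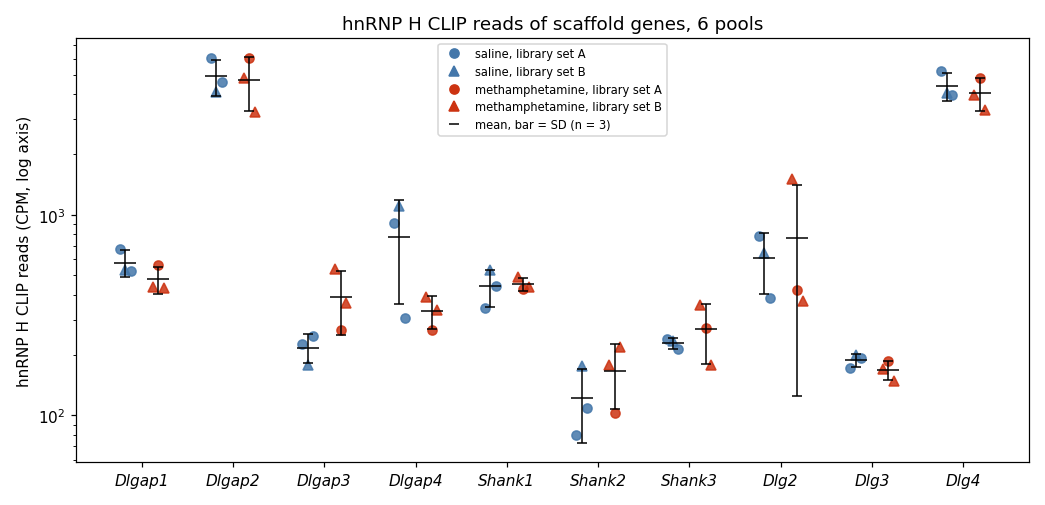
hnRNP H CLIP reads (CPM, log axis) of the 10 scaffold genes in each of 6 pools, coloured by treatment and shaped by library set, with the mean and SD of 3 pools per treatment. Dlgap2 and Dlg4 lie between 3253 and 6048 CPM, and Dlg2 has 1 methamphetamine pool at 1509 CPM. Only Dlgap3 shows no overlap between treatments, 1 of 10 genes and so near the 9.59% of all genes.

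Subtracting the RNA-seq level of the same pool from its CLIP level gives CLIP reads relative to RNA on a log2 scale, within each gene. None of the 10 genes had an unadjusted p under 0.05 with limma, where 3.00% of 7031 genes did, and none had treatments that did not overlap, against 7.55% of all. No gene in the table passed an adjusted p of 0.05 (211 had an unadjusted p under 0.05). Dlgap3 read -2.50, -2.11 and -2.56 after saline and -0.37, -2.46 and -1.34 after methamphetamine (change 1.00, SE 0.59; 95% interval -0.32 to 2.32). Methamphetamine pools 1 and 3 were above all saline pools and methamphetamine 2 was among them. The set B pools of Dlgap3 also all lay above its set A pools. Its change was 0.07 within set A and 1.25 within set B, and 0.66 (SE 0.53) with library set as a covariate. For Dlgap1 and Shank2 the sets did not overlap either, given as a description. Dlgap4 read 1.53, 2.00 and -0.02 against 0.71, -0.28 and -0.11, given as a description, with a difference of -1.06 that became -0.04 without its position. Dlgap1 had a change of -0.50 (SE 0.47), Shank3 of 0.48 (SE 0.54) and Shank2 of 0.39 (SE 0.57), and the other 5 changes ran from -0.22 to 0.03. Without methamphetamine 1 the change was 0.49 for Dlgap3, 0.012 for Shank3 and 0.12 for Shank2, and for Shank2 it was 0.11 without saline 1. The scaffold median was -0.022 beside 0.055 for all genes.

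**Figure D5:**
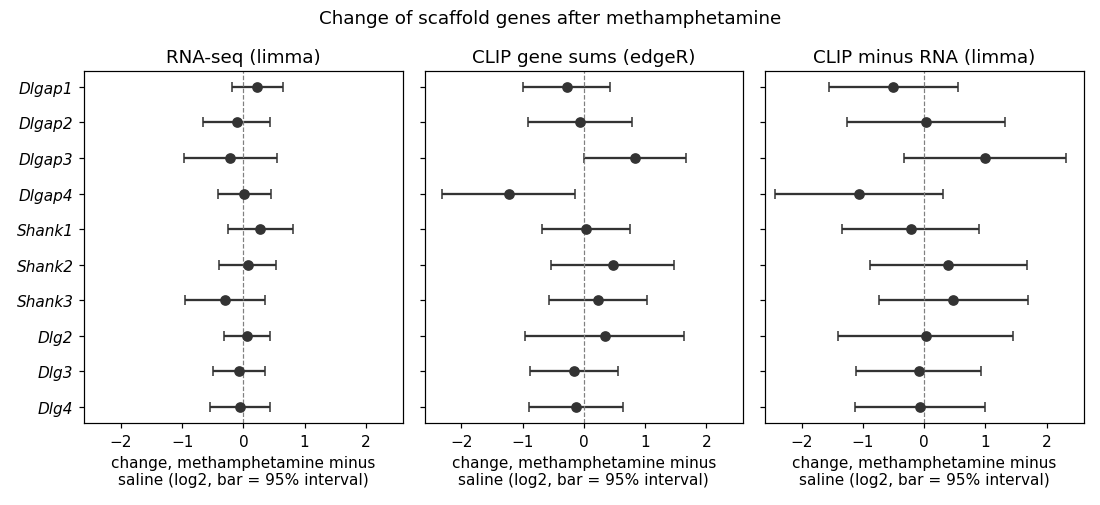
Change of each scaffold gene, methamphetamine minus saline, with its 95% interval on a log2 scale, for RNA-seq, CLIP gene sums and CLIP minus RNA. Every RNA-seq and CLIP minus RNA interval includes 0. The Dlgap4 CLIP sums hold the position that chose the members, so their bars are a description and carry no test. Without that position the Dlgap4 CLIP change was -0.06 (SE 0.41).

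The authors' deposited tables list 77 scaffold positions for methamphetamine and 78 for saline, 110 distinct ones, each list pooling its 3 libraries. Dlg4 supplied 34 and 30, Shank1 15 and 9, Dlgap3 8 and 3, Shank3 5 and 7, Shank2 4 and 3, Dlgap1 3 and 7, Dlgap2 3 and 8, Dlg2 2 and 9, Dlgap4 2 and 2, and Dlg3 1 and 0. Of the methamphetamine positions 45 met a saline position on the same strand by at least 1 base, 58.4% (Wilson 95% interval 47.3 to 68.8%), beside 48.7% of the whole list of 9903. Of the saline positions 45 met a methamphetamine position, 57.7% (46.6 to 68.0%), beside 50.0% of 9537. Dlg4 gave 25 of those 45, whereas neither pair of Dlgap4 positions met. Lists pooled by treatment have no replicates, so these counts carry no test. Introns held 64.9% and 78.2% of the listed scaffold positions, beside 68.1% and 72.7% of the whole lists, and 5′ UTRs 15.6% and 12.8%, beside 5.70% and 5.66% for 5′ UTRs in the whole lists; 11 of 12 and 9 of 10 of the 5′ UTR positions belonged to Dlg4.

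The lists and the counts did not single out the same scaffold sites. Of the 20 scaffold positions with the most reads, 5 were in a list, and of all 1141 counted ones 99 were. The highest positions of Dlg4, Dlgap2, Dlgap4, Dlgap1, Dlg3 and Shank1 were in neither list, and those of Shank2, Shank3 and Dlgap3 were in both. That of Dlg2 was in the methamphetamine list alone, although its mean was lower after methamphetamine (19.3 CPM) than after saline (36.0 CPM). Of the 1474 positions with the most reads in the whole table, 299 were in a list. How a position entered the lists is not given in the sources used here. Separately, 8 of the 110 listed scaffold positions had no line in the count table, and 3 carried another gene's identifier or the opposite strand.

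Among 35 other genes listed as scaffolds, adaptors and related genes of the synapse, such as Homer and Magi genes, none passed an adjusted p of 0.05 in any fit. The list was not limited to postsynaptic proteins. In RNA-seq 0 of 35 had an unadjusted p under 0.05 (median change 0.03), and the smallest p-values were those of the kinase anchor Akap5 (change -0.34), Baiap3 (-0.36) and the adaptor Apba1 (0.21). In CLIP gene sums 3 of 30 tested were higher and 1 lower at that p, beside 5.25% of all genes, with a median change of 0.24 beside 0.038 for all genes: Magi3 (2.12, SE 0.84), Homer2 (-2.05, SE 0.82) and Apba1 (1.44, SE 0.60) led. Magi3 read 11.9, 0 and 10.2 CPM after saline and 65.6, 12.1 and 33.7 CPM after methamphetamine. Homer2, which links Shank proteins to metabotropic glutamate receptors, read 180, 15.9 and 34.2 CPM against 21.1, 22.2 and 12.4 CPM, so a single saline pool stood high. In CLIP minus RNA 1 of 30 was higher, near the 3.00% of all genes, again Magi3 (2.14, SE 0.86), followed by Homer1 (1.22) and Homer2 (-1.24). Of 85 tested CLIP positions of these genes, 2 were higher and 1 lower, near the 3.35% of all positions: a Kalrn intron position (-1.35; 46, 10 and 74 reads in the saline pools against 9, 11 and 10), a Lzts3 coding-exon position (1.32) and a Dlg5 intron position (1.13).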

How the data were processed

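The 6 CLIP and 6 RNA-seq libraries were grouped by treatment from their titles; mutant mice were not analysed here. Members and lists were chosen with earlier results of these data known. For RNA-seq the authors deposited voom log2 CPM per the labels. Of values with low read counts, 100% inverted to whole reads within 0.1 reads at an offset of 0.5. Values with high read counts, among them those of Dlgap3, Dlg4 and Shank3, were rounded without that check. CLIP values are whole-number counts per 100-nt position, deposited by the authors; 172271 lines gave 147438 distinct positions, and each entered 1 time. In the authors' deposited peak lists a signal value was treated as a score and p-values stand beside it per the file headers. The submitters' processing notes name Trimmomatic, UMI-tools, STAR, bedtools, Subread, featureCounts, limma, edgeR and build mm10, with no versions; whether counting used strand is not given in the sources used here. Positions were placed in GENCODE M21 (GRCm38), 1-based.

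RNA-seq was tested with limma 3.58.1 (mean-variance trend), CLIP with edgeR 4.0.16 (quasi-likelihood test after filterByExpr and TMM) on positions and on sums per gene, and CLIP minus RNA with limma on log2 CLIP CPM (prior count of 2) less RNA log2 CPM, in R 4.3.3. All tests were two-sided with Benjamini-Hochberg adjustment over all features at 0.05. Each was run on simulated data without library sets, with planted changes larger than the scaffold changes given here. How well smaller changes are found was not tested. DESeq2 1.42.0 was an alternative. Genes were named by rule: the 10 members, the highest position of each and those with an unadjusted p under 0.05, 3 of 35 partner genes per fit, and 5 genes of the closest profile. Sums over abutting positions can count a read more than once. edgeR's biological coefficient of variation came to 56.0% at CLIP positions, 49.3% in CLIP gene sums and 24.8% in recovered RNA-seq reads. Intervals of shares cover counting error only.

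Replicate numbers did not pair saline with methamphetamine pools: deviations of same-numbered pools correlated at -0.35, -0.82 and -0.49 in RNA-seq and at -0.37, -0.55 and -0.08 in CLIP.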

Additional observations from a re-analysis of the deposited data

How the results depend on the processing

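Calls at an adjusted p of 0.05 numbered 0 under each alternative of the 4 fits, including a fit with the replicate number as a block (replicate block: 0 in each fit) and leaving out each pool in turn (0 to 0), except CLIP positions without a filter on low counts, where 414 of 140449 positions passed, among them 1 of 1109 scaffold positions, the Dlgap4 position that chose the genes (-3.58, a description). The shares of listed scaffold positions that met the other list became 70.0% and 74.2% among positions at or above the median signal of their list. Shares of the whole lists at that signal cut were not computed, so the rise cannot be read as particular to the scaffold genes. Sums of the highest position per run and sums without the Dlgap4 position were chosen after seeing the data and changed no call. No scaffold gene, and none of the scaffold positions tested under the remaining alternatives, passed the threshold, and several small changes changed sign. With library set as a covariate, RNA-seq changes became -0.018 (Dlg2), 0.030 (Dlg4), 0.069 (Dlgap2) and 0.072 (Dlgap3), CLIP sums 0.085 (Dlgap2) and -0.039 (Shank1), CLIP minus RNA -0.071 (Dlg2), 0.0073 (Dlg3) and -0.022 (Shank2), and the highest Shank2 position -0.0094. Without a count filter the highest positions became -0.31 (Dlg4), -0.22 (Dlgap2), -0.34 (Shank1) and -0.24 (Shank2), and the Shank1 sum -0.019, which was -0.028 without the 1% highest positions. At a minimum of 10 CLIP reads, CLIP minus RNA became -0.034 for Dlg2 and -0.035 for Dlgap2. Leaving out 1 pool gave ranges across 0 in RNA-seq for Dlg2 (-0.019 to 0.16), Dlg3 (-0.22 to 0.037), Dlg4 (-0.16 to 0.076), Dlgap2 (-0.33 to 0.080), Dlgap3 (-0.51 to 0.034), Dlgap4 (-0.12 to 0.19) and Shank2 (-0.046 to 0.27). In CLIP sums they were -0.61 to 0.66 (Dlg2), -0.30 to 0.0066 (Dlg4), -0.31 to 0.14 (Dlgap2), -0.11 to 0.15 (Shank1) and -0.021 to 0.45 (Shank3). In CLIP minus RNA they were -0.63 to 0.47 (Dlg2), -0.25 to 0.14 (Dlg3), -0.22 to 0.11 (Dlg4) and -0.20 to 0.32 (Dlgap2). For highest positions they were -0.40 to 0.024 (Dlg3), -0.084 to 0.26 (Dlg4), -0.0077 to 0.42 (Dlgap2), -0.22 to 0.45 (Shank1) and -0.21 to 0.31 (Shank2). The cause of these sign changes was not tested.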
